A study of Mus musculus with 10 samples.

Results

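Cathepsins are proteases that act mainly inside lysosomes, the acidic compartment where cells digest protein, and some of them are also secreted. Most belong to the papain-like cysteine proteases, among which cathepsins K, L and S (Ctsk, Ctsl and Ctss) can cut elastin, the fibre that gives the aortic wall its recoil. Cystatin C (Cst3) is a small secreted inhibitor that blocks the cysteine cathepsins outside the cell, and the balance of these enzymes and their inhibitor has long been studied in aneurysm. Here the transcripts of 10 genes were followed, namely 9 cathepsins (Ctsa, Ctsb, Ctsc, Ctsd, Ctsh, Ctsk, Ctsl, Ctss and Ctsz) and Cst3. They were taken by name from the 35527 gene names on the array, of which 22520 were measured well enough to be tested, all 10 members among them.

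The aortas came from male C57BL/6J mice, 10 weeks old and on a normal diet. In the PPE group the infrarenal aorta was infused for 5 min at 100 mmHg with porcine pancreatic elastase (PPE, 1.5 U/mL in saline), which damages the elastin of the wall and leads to an abdominal aortic aneurysm. Sham mice had the same operation with saline alone, and in both groups the segment was taken on day 7, with 5 mice per group and 1 aorta per array. The elastase is given from outside, so the model starts from wall injury and has no genetic change. Aortic RNA was labelled red and a universal mouse reference RNA green on every array, so each value is a log2 ratio of aorta over reference, and levels of different probes are not comparable with each other. A change is the mean of the 5 PPE arrays minus the mean of the 5 sham arrays, with its standard error (SE) and an adjusted p from limma over all 22520 names. Members with an adjusted p under 0.01 are said to have risen or fallen.

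Markers of smooth muscle, a cell of the aortic wall, stood above the reference, and all 12 of the list were measured. Their mean log2 ratio lay between 3.43 and 4.60 on the sham arrays and between 1.75 and 2.90 on the PPE arrays. Adipocyte markers also stood above the reference, with means between 4.94 and 6.05 in sham and between 3.95 and 5.52 in PPE. These values therefore do not single out the wall from the fat around it. Over all names, 13.9% rose, 9.96% fell, and in 25.5% of names the groups did not overlap, so a change in either direction was common in this tissue. The median change of all names was 0.02, with quartiles of -0.25 and 0.34. Red signal was well above background on 37.6% (sham 5) to 65.8% (PPE 1) of spots, and for every member probe on all 10 arrays, without saturation.

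Of the 10 members, 7 cathepsins rose, Cst3 fell, and Ctsk and Ctsh did not pass the test. The 2 groups of arrays did not overlap for 8 members. The 7 of 9 cathepsins that rose stand beside the 13.9% of all names that did. With arrays centred on their median in place of loess, the changes of all 9 cathepsins were larger, yet only Ctss passed (limma). In whole tissue, a change in the number of cells of a type and a change in RNA per cell cannot be told apart.

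**Figure D1:**
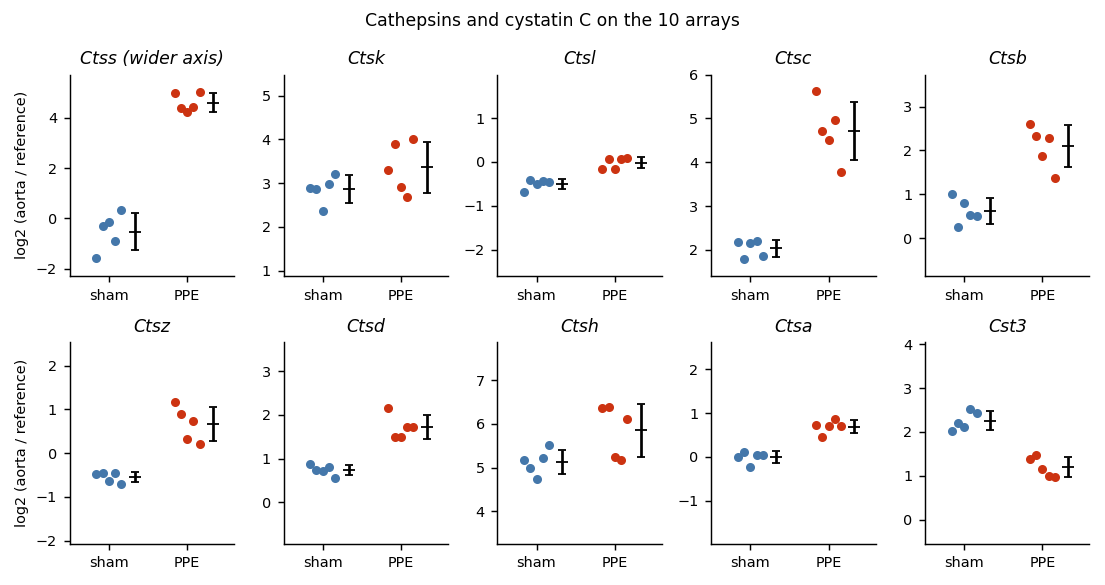
Log2 ratio of aorta over reference (y axis) on each of the 5 sham (blue) and 5 PPE (red) arrays for the 10 members, with the mean and SD of each group in black; panels span the same number of log2 units except Ctss. The PPE arrays lie above all sham arrays for 7 cathepsins and below them for Cst3, while for Ctsk and Ctsh 3 PPE arrays lie above all sham arrays and the other two among them.

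What was measured for each gene is 1 stretch of its transcript, matched by a 60-base probe. The first 30 bases of the probes behind the elastin-degrading cathepsins, the inhibitor and Ctsd, which has a pair of probes that differ, are shown because the results turn on them (5′ to 3′ as in the files, no base marked).
Ctss: cctgttgtctagtgttttctaataaccatt
Ctsk: catttcagtcttccactgagatgcacaaat
Ctsl: accaaacccttattgagtcaaaccatggta
Cst3: aaaggcacacactccctgacaaaattcagc
Ctsd, brighter probe: gaaggagcaagaggacagaagcaaaactat
Ctsd, other probe: actgtatcggttccatgtaagtctgaccag

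The probes lie on mm9 at chr3:95360245-95360304 for Ctss and chr3:95313165-95313224 for Ctsk, both on the plus strand. The Ctsl probe lies at chr13:64465287-64465346 and the Cst3 probe at chr2:148697681-148697740, both on the minus strand. Which exon or untranslated part each one matches was not analysed here. Ctsk and Ctss are neighbours, with 47020 bases between their probes.

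Among the elastin-degrading cathepsins, Ctss rose by far the most. Cathepsin S is the cathepsin of antigen-presenting cells, where it trims the invariant chain of class II molecules, and it keeps its activity at neutral pH. Its log2 ratio was -1.58, -0.29, -0.15, -0.90 and 0.33 on sham arrays 1 to 5 and 4.98, 4.39, 4.22, 4.41 and 5.01 on PPE arrays 1 to 5. Every PPE array was far above every sham array, and the sham arrays were spread more widely than the PPE arrays, with an SD of 0.74 against 0.37. The change was 5.12 (SE 0.32, adjusted p = 8.55e-07, n = 5 per group), a 34.9-fold increase and the 13th largest of all 22520 names. In processed signal, red Ctss went from a median of 5663 (4745 to 8244) in sham to 129278 (102884 to 270277) in PPE, while the green reference signal was 10438 and 6649. From the red channel alone, quantile normalized, the change of Ctss was 4.22, an 18.6-fold increase, and it passed there too. On the slide that held sham 1, PPE 1 and PPE 2 the change was 6.27, and on the slide that held sham 2, sham 3, PPE 3 and PPE 4 it was 4.54.

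Ctsk encodes the main collagen-degrading protease of osteoclasts, which also cuts elastin. Sham arrays 1 to 5 gave log2 ratios of 2.88, 2.87, 2.35, 2.98 and 3.22, and PPE arrays 1 to 5 gave 3.30, 3.90, 2.92, 2.68 and 4.01. PPE 1, PPE 2 and PPE 5 were above all sham arrays, whereas PPE 3 and PPE 4 lay within the sham range. The difference of 0.50 (SE 0.26, 95% confidence interval -0.07 to 1.08) did not pass the test (limma, adjusted p = 0.168). In processed signals, red Ctsk was higher in PPE by 1.17 on the log2 scale and the green reference by 0.81. From the red channel alone, quantile normalized, Ctsk differed by 0.96 and did pass (limma, adjusted p = 0.00702). That setting leaves out the reference and also replaces loess, and which of these moved the call for Ctsk was not tested.

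The interval of the Ctss change, 4.42 to 5.82, lies wholly above that of its neighbour Ctsk. No test was made of the difference between these changes. The pair is described because of its place in the genome, and the description was chosen after the values were seen.

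Ctsl, a broad lysosomal endopeptidase found in most cells, moved little but evenly. Its log2 ratio was -0.69, -0.42, -0.50, -0.43 and -0.46 on sham arrays 1 to 5 and -0.16, 0.07, -0.16, 0.06 and 0.08 on PPE arrays 1 to 5. The groups did not overlap, and both SDs were small (0.11 in sham and 0.13 in PPE). The change was 0.48 (SE 0.10, adjusted p = 0.00327), slightly less than that of Ctsk, whose arrays were spread more widely. The call for Ctsl was lost in 6 of 12 other ways of processing, among them the red channel alone (0.33, adjusted p = 0.0404), the deposited LogRatio (0.41, adjusted p = 0.0137) and the slide as a block (0.50, adjusted p = 0.0141). It was also lost when PPE 4 was left out (0.46, adjusted p = 0.0108).

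The other 6 cathepsins include cysteine proteases of differing action, the aspartic protease Ctsd and the serine carboxypeptidase Ctsa. Ctsc, also called dipeptidyl peptidase I, activates the granule proteases of neutrophils and cytotoxic lymphocytes. Ctsc had log2 ratios of 2.18, 1.78, 2.15, 2.21 and 1.86 on sham arrays 1 to 5 and 5.62, 4.71, 4.51, 4.96 and 3.77 on PPE arrays 1 to 5. All PPE arrays were above all sham arrays, with PPE 1 highest and PPE 5 lowest. Ctsc rose by 2.68 (SE 0.28, adjusted p = 2.28e-05, n = 5 per group), a 6.41-fold increase. A second probe for Ctsc gave a smaller change of 1.59 that also passed, with sham arrays between 0.23 and 1.09 and PPE arrays between 1.91 and 2.91.

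Ctsb, an abundant lysosomal endopeptidase that also removes dipeptides, rose by 1.47 (SE 0.23, adjusted p = 0.000379). Its log2 ratio was 1.01, 0.26, 0.79, 0.53 and 0.51 on sham arrays 1 to 5 and 2.61, 2.34, 1.88, 2.28 and 1.37 on PPE arrays 1 to 5. The groups did not overlap, and PPE 5 was again the lowest of the PPE arrays. Ctsz, a carboxypeptidase also known as cathepsin X, went from -0.48, -0.46, -0.64, -0.45 and -0.71 on sham arrays 1 to 5 to 1.17, 0.89, 0.33, 0.72 and 0.21 on PPE arrays 1 to 5. PPE 5 was once more the lowest PPE array and still above every sham array. Ctsz rose by 1.21 (SE 0.17, adjusted p = 0.000244).

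Ctsd is the main aspartic protease of the lysosome and is not blocked by cystatins. On its brighter probe (mm9, chr7:149561962-149562021, minus strand) the log2 ratio was 0.88, 0.74, 0.71, 0.80 and 0.56 on sham arrays 1 to 5 and 2.15, 1.49, 1.50, 1.72 and 1.73 on PPE arrays 1 to 5. The groups were apart, and Ctsd rose by 0.98 (SE 0.14, adjusted p = 0.000182). The other probe, whose match is split over chr7:149566847-149568505, showed overlapping groups, from -0.92 to 0.02 in sham and from -0.88 to 0.30 in PPE. Its difference was 0.16 (adjusted p = 0.671 over 30836 probes), and with the mean of both probes the change of Ctsd was 0.57 and did not pass (limma, adjusted p = 0.0248). The rise of Ctsd thus rests on 1 probe.

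Ctsa is a serine carboxypeptidase that also protects β-galactosidase and neuraminidase in the lysosome. The log2 ratios of Ctsa were 0.01, 0.12, -0.23, 0.04 and 0.04 on sham arrays 1 to 5 and 0.72, 0.45, 0.71, 0.87 and 0.70 on PPE arrays 1 to 5. The groups did not overlap, and the change was 0.69 (SE 0.11, adjusted p = 0.000483). From the red channel alone it was 0.33 and did not pass (limma, adjusted p = 0.0601). A second probe of Ctsa gave 0.36 and narrowly missed the threshold (adjusted p = 0.0121), although its groups did not overlap either.

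Ctsh is a cysteine protease that acts mainly as an aminopeptidase. Ctsh had log2 ratios of 5.16, 5.00, 4.75, 5.21 and 5.51 on sham arrays 1 to 5 and 6.37, 6.37, 5.24, 5.17 and 6.10 on PPE arrays 1 to 5. As for Ctsk, PPE 1, PPE 2 and PPE 5 were above all sham arrays and PPE 3 and PPE 4 were among them. The difference of 0.72 (SE 0.26, 95% confidence interval 0.15 to 1.30) did not pass the threshold (limma, adjusted p = 0.0514), and an exact two-sided permutation test over all relabellings of the arrays gave p = 0.0556. From the red channel alone it was 0.85 and passed (limma, adjusted p = 0.00148).

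PPE 3 and PPE 4 shared slide 2 with sham 2 and sham 3. Within that slide the difference was 0.19 for Ctsk and 0.33 for Ctsh. Within slide 1, which held sham 1, PPE 1 and PPE 2, it was 0.72 for Ctsk and 1.21 for Ctsh. The remaining 3 arrays were each on a slide of their own, so no value can be had within those slides. The part of the slide in these differences was not tested beyond the fit with the slide as a block, under which neither gene passed.

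**Figure D2:**
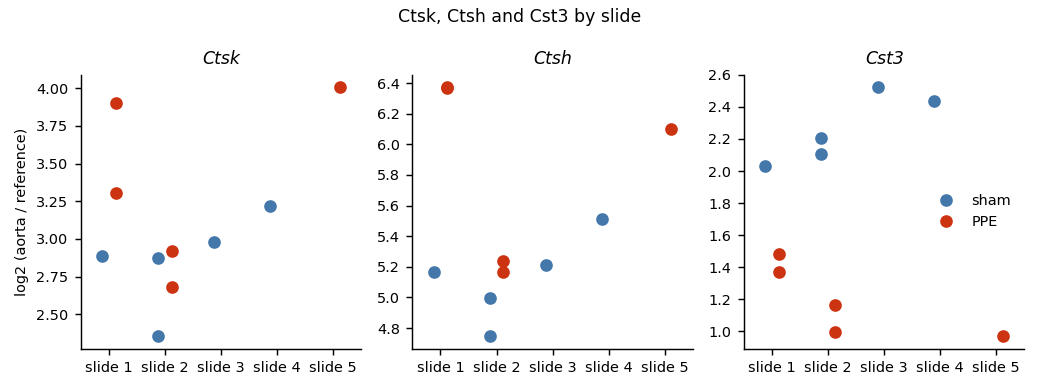
Log2 ratio of aorta over reference (y axis) of Ctsk, Ctsh and Cst3 on each array, placed by slide (x axis), with sham in blue and PPE in red. On slide 2 the PPE arrays of Ctsk and Ctsh lie close to the sham arrays, while Cst3 is lower in PPE on both slides that hold both groups.

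Cst3 was the 1 member that fell. Its log2 ratio was 2.03, 2.21, 2.10, 2.52 and 2.44 on sham arrays 1 to 5 and 1.37, 1.48, 1.16, 0.997 and 0.97 on PPE arrays 1 to 5. Every PPE array was below every sham array, and the SDs were alike (0.21 in sham and 0.23 in PPE). The change was -1.06 (SE 0.14, adjusted p = 0.000137, n = 5 per group), a level 2.09-fold lower in PPE, in a tissue where 9.96% of names fell. In processed signal, red Cst3 had a median of 244160 in sham and 122874 in PPE, with overlapping ranges, and the green reference was 0.28 higher in PPE on the log2 scale. The change was -0.61 and -1.08 within the slides that held both groups. With arrays centred on their median in place of loess, the change of Cst3 was -0.08 and did not pass (limma, adjusted p = 0.950). The median of all names stood at 0.41 under that scaling, so that Cst3 was 0.48 below it, against 1.09 below it with loess.

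The elastin-degrading cathepsins did not move as a group. Their median change was 0.50, with a range of 0.48 to 5.12, against a median of 1.10 and a range of 0.69 to 2.68 for the other 6 cathepsins. The set thus held the largest change of the 9 cathepsins and both of the smallest, and the difference between the medians of -0.59 describes Ctsk and Ctsl, not Ctss. With the red channel alone this difference was -0.049. Cst3, at -1.06, lay below all 9 cathepsins.

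**Figure D3:**
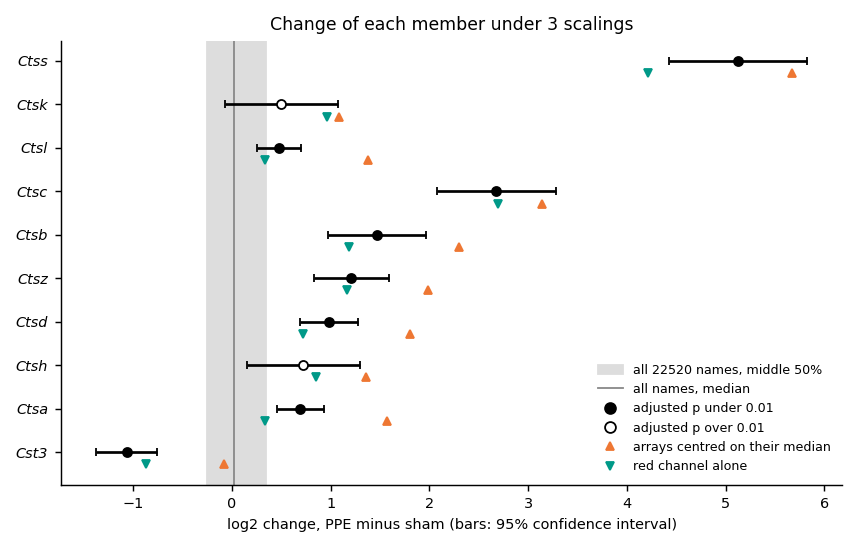
Change from sham to PPE on the log2 scale (x axis) of the 10 members, with 95% confidence intervals; filled circles had an adjusted p under 0.01 with loess, open circles did not, and triangles give the change under 2 other scalings. Ctss stands at 5.12, Ctsk and Ctsl near the upper quartile of all names (grey band), and Cst3 at -1.06, or -0.08 with arrays centred on their median.

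Since the inhibitor fell, each cathepsin was also compared with Cst3 on the same array, by subtracting the log2 ratio of Cst3 from that of every name. This compares changes and not levels, and for Ctsa and Ctsd, which cystatins do not block, Cst3 is only a common yardstick. All 9 cathepsins rose relative to Cst3 and none had overlapping groups. With loess, 80.5% of all names also rose relative to Cst3 and 72.6% had groups that did not overlap, so that 9 of 9 is close to what most names did. With arrays centred on their median, the 9 cathepsins passed as well, and 25.4% of all names did. The median over all names was 1.09 with loess.

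Ctss rose by 6.19 relative to Cst3 (SE 0.30, adjusted p = 3.98e-10), from between -3.62 and -2.11 in sham to between 2.91 and 4.04 in PPE. Ctsc rose by 3.74, Ctsb by 2.54, Ctsz by 2.27 and Ctsd by 2.05. Ctsh rose by 1.79, Ctsa by 1.76, Ctsk by 1.57 and Ctsl by 1.54. The last 4 lie closest to the median of all names. For Ctsk the values relative to Cst3 were 0.85, 0.66, 0.25, 0.45 and 0.78 on sham arrays 1 to 5 and 1.93, 2.42, 1.76, 1.69 and 3.04 on PPE arrays 1 to 5. The PPE 3 and PPE 4 arrays, which lay in the sham range for Ctsk itself, were above it on this scale, and Ctsk passed (limma, SE 0.25, adjusted p = 3.34e-05, and at most 0.00826 in 12 other ways of processing).

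**Figure D4:**
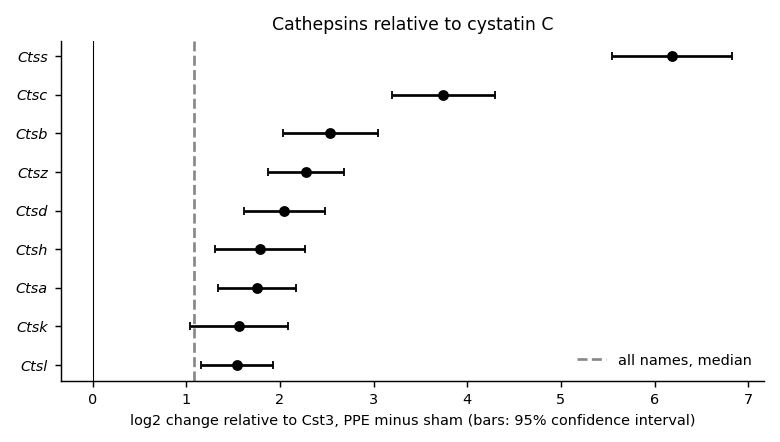
Change of each cathepsin relative to Cst3 (x axis, log2 scale, with 95% confidence intervals; circles are the difference between 5 PPE and 5 sham arrays), with the median of all names as a dashed line. All 9 lie to the right of the 1.09 at which the median name lies, from 1.54 for Ctsl to 6.19 for Ctss.

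The rest of the cathepsin family was mostly not detected or did not pass. Of 14 other cathepsin names, 5 were tested and 1 rose, namely Ctsw, a cathepsin of cytotoxic lymphocytes (2.47, SE 0.33, adjusted p = 0.000157). That is 20% of those tested, near the 13.9% of all names that rose. Ctsw was well above background on 4 sham arrays, and a test needed 5 arrays, so it was tested only with the help of PPE arrays. The neutrophil granule protease Ctsg (1.74) and the widely expressed Ctsf (-0.97) did not pass (limma, adjusted p = 0.0248 and 0.0174). Of the 9 names not tested, mainly cathepsins known from placenta, 7 were above background on no array.

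In contrast to Cst3, the other inhibitors of cysteine proteases rose or did not pass, and none fell. Of 21 names 14 were tested and 10 rose (71.4%, beside 13.9% of all names), with a median change of 1.74. Of those that rose, Stfa1 and Stfa2l1 were well above background on 0 sham arrays, BC100530 on 1, Cst7 on 3 and Kng2 on 4. A test needed 5 arrays, so these genes were tested only with the help of PPE arrays. The count and the median thus rest in part on the filter. Stefins are cystatins that work inside the cell, and the largest changes were found among the stefin A genes. Stfa2l1 was not well above background on any sham array and was on all 5 PPE arrays, which gave a red signal at least 11.8-fold higher in PPE. The test was of its log2 ratio, not of this bound (limma, adjusted p = 6.63e-05). Stfa2 rose by 3.06 and BC100530 by 2.40. These genes are near-identical copies of each other, so that their probes may share signal and the single values are uncertain. With loess, Cst3 thus fell while 10 of these inhibitors rose and 4 did not pass. With arrays centred on their median, Cst3 changed by -0.08 and did not pass (limma, adjusted p = 0.950).

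The wider lysosome moved less than Ctss and Ctsc. Of 35 other lysosomal hydrolases 14 rose and 2 fell, with a median change of 0.52, and the largest changes were those of Lgmn, the asparaginyl protease that processes cathepsins (2.58), Prcp (1.96) and Gusb (1.45). Of 16 lysosomal membrane proteins and activators 6 rose and none fell (median 0.51), with Laptm5 at 2.54, Psap at 1.24 and Npc2 at 1.10. Of 18 subunits of the vacuolar ATPase, the pump that acidifies the lysosome, 4 rose and none fell, and the median of 0.17 was close to that of all names. The largest fitted change among these was that of Tcirg1 (2.18), a subunit known from osteoclasts and immune cells, and Atp6v0c rose by 0.72. Atp6v0d2 was not well above background on any sham array and its red signal was at least 3.58-fold higher in PPE. Its log2 ratio passed the test (limma, adjusted p = 0.000234). Atp6v0d2 could be tested only through the PPE arrays, so the count of 4 of 18 rests in part on the filter. Of 7 tested genes of lysosomal sorting and transcription 3 rose, namely the mannose-6-phosphate receptors M6pr (1.03) and Igf2r (0.70), which carry cathepsins to the lysosome, and Gnptab (0.90), which makes the tag they bind. Sort1, another sorting receptor, had the largest difference of this list and in the other direction (-1.34). Its groups did not overlap, and it just missed the threshold (limma, adjusted p = 0.0101). The shares that rose in these lists were 40%, 37.5%, 22.2% and 42.9% in the order given, beside 13.9% of all names. Of the hydrolases 5.71% fell, beside 9.96% of all names.

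A further list held elastin itself (Eln) and other proteases that act on it or on the matrix around it. Of its 7 tested genes 4 rose and none fell (median 1.05, Eln included), with the membrane-bound Mmp14 at 3.02 and Mmp9 at 1.85. The share that rose was 57.1%, beside 13.9% of all names. Eln differed by -0.17 and did not pass (limma, adjusted p = 0.744). Mmp12, the macrophage elastase, was not well above background on any sham array and its red signal was at least 4.29-fold higher in PPE. Its log2 ratio passed the test (limma, adjusted p = 0.000718). Mmp12 could be tested only through the PPE arrays, so the count, the median and the share rest in part on the filter. The increase of Ctss, at 5.12, was larger than the fitted change of each gene of this list. The fitted change of Mmp12 rests on sham values near background and its fold is a lower bound, so Ctss cannot be ranked against Mmp12.

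Markers of immune cells changed as well. Of 16 macrophage markers 11 rose and none fell (Fcgr1 by 3.89, Emr1, now Adgre1, by 3.42 and Cd14 by 3.30), all 16 were detected, and their mean log2 ratio went from between 1.23 and 1.78 in sham to between 2.83 and 3.92 in PPE. The other 5, C1qa (0.43), C1qb (1.25), C1qc (0.51), Mertk (-0.30) and Cd163 (-0.46), did not pass. Of 9 neutrophil markers 8 rose (S100a8 by 5.52, Cxcr2 by 3.50 and S100a9 by 3.25), with means from 0.32 to 0.52 in sham and from 2.62 to 4.15 in PPE. Among these, Ngp and Mmp8 were well above background on 0 sham arrays, Ltf, Mpo and Cxcr2 on 1 and Camp on 4. They could be tested only with the help of PPE arrays, so the count rests in part on the filter and the sham means lie partly at the floor. Of 10 lymphocyte markers 3 rose (Cd3d by 2.97, Lck by 2.73 and Cd3g by 2.36), with means from -0.81 to 0.40 in sham and from 0.29 to 1.78 in PPE. Cd3d and Cd3g were well above background on 4 sham arrays, so they too needed PPE arrays to be tested. The shares that rose were 68.8% of the macrophage, 88.9% of the neutrophil and 30% of the lymphocyte markers, beside 13.9% of all names. The part of these cells in the changes of the cathepsins was not tested.

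Ctsk is also known as a gene of osteoclasts. Of 7 osteoclast markers tested 2 rose, Tm7sf4 (now Dcstamp) by 1.68 and 4833422F24Rik (now Ocstamp) by 1.004. Itgb3 fell by 0.66 with overlapping groups. Tm7sf4 was well above background on 2 sham arrays and 5 PPE arrays. It could be tested only through the PPE arrays, so the count rests in part on the filter. Acp5 (0.01), Oscar (0.15), Tnfrsf11a (0.53) and Nfatc1 (0.57) did not pass. Calcr, above background on no array, was not tested. Among cells of the wall, 10 of 12 smooth muscle markers fell, with Myl9 at -3.03, Synpo2 at -2.98 and Tagln at -2.95. Of 10 fibroblast markers 6 rose (Col1a1 by 2.04, Col3a1 by 1.95 and Thy1 by 1.38). None of 8 endothelial markers passed. Of 8 adipocyte markers Ucp1 fell by 2.94 and the other 7 did not pass, with a median change of -0.69 for the list. Beside the 13.9% of all names that rose stand 28.6% of the osteoclast and 60% of the fibroblast markers. Beside the 9.96% that fell stand 83.3% of the smooth muscle, 14.3% of the osteoclast and 12.5% of the adipocyte markers. The part of these cells in the fall of Cst3 was not tested.

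**Figure D5:**
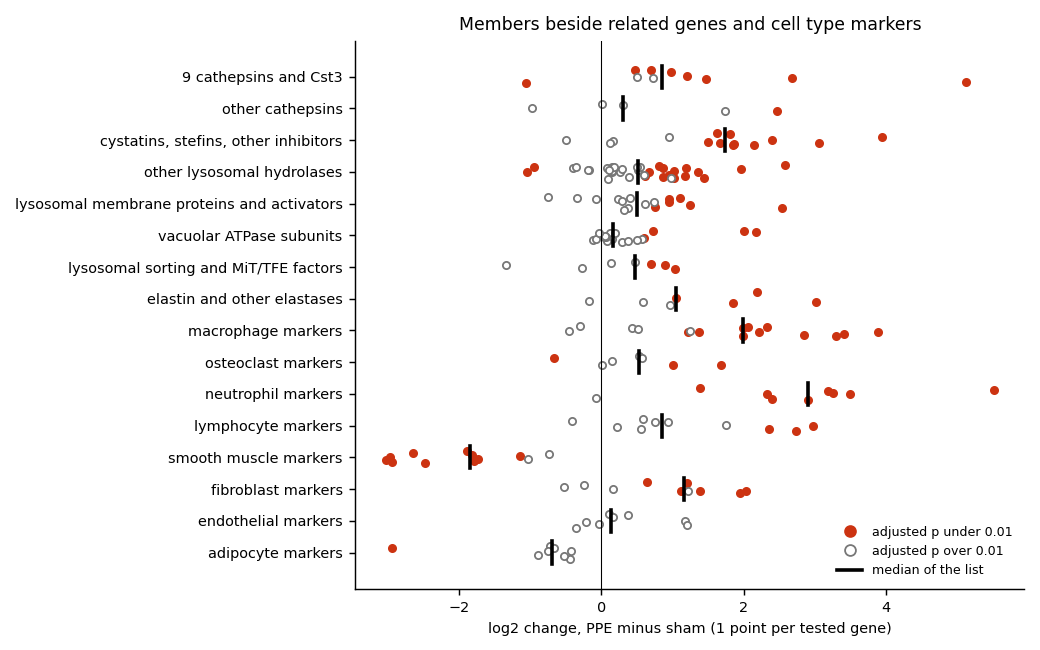
Change from sham to PPE on the log2 scale (x axis) of each tested gene in the lists named on the y axis, filled red where the adjusted p was under 0.01 and open where it was not, with the median of each list as a black bar. Ctss lies beyond every gene of the lysosomal lists, and both the smooth muscle and the adipocyte markers lie on the side of Cst3.

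The names whose log2 ratios over the 10 arrays were most like those of a member are given as a description, since all share the same arrays, the same reference and the step between groups. For Ctss these were Slc15a3 (Pearson r = 0.997), Amica1 (0.996) and Ccl4 (0.996), which rose by 3.47, 2.99 and 4.16. For Ctsk they were Gm5631 (0.979), a non-coding region on chromosome 6 named by its position in the files (0.961) and 9930111J21Rik1 (0.960). For Ctsl they were Stk4 (0.973), another such region on chromosome 6 (0.960) and Rpl10a (0.956). For Cst3 they were such a region on chromosome 3 (0.971), Cyb5 (0.970) and Inmt (0.968), all lower in PPE. The 3 names for Ctss differ from those for its neighbour Ctsk. Their steps between groups differ too, at 5.12 and 0.50, so no comparison of the pair is drawn from these names.

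The promoters of the members were searched for motifs of regulators of lysosomal and myeloid genes. RefSeq promoter sequences (GRCm38.p6, 300 bases that end shortly after the start) were found for 8 of the 10 members, and not for Ctsb and Ctsh. The motif CACGTG, bound by the MiT/TFE factors of the lysosome among others, is its own reverse and is present in 7.15% of 32851 promoters, and in those of Ctsa, Ctsd and Ctsl. The longer forms TCACGTG and GTCACGTG (on either strand, in 3.77% and 2.25% of promoters) and TCACGTGA (0.974%), all of which contain CACGTG, were found in Ctsa and Ctsd. The motif GAGGAA (on either strand, 28.3% of promoters), the core that the myeloid factor PU.1 binds, was found in Cst3, Ctsc, Ctsk and Ctss. The longer GAGGAAGT, which contains it, was in 3.20% of promoters and among the members in Ctsc and Ctss. Windows of 30 bases around the longest motifs are shown for these 4 genes, in the direction of transcription with the motif in capitals (in Ctsc and Ctss it is on the opposite strand).
Ctss: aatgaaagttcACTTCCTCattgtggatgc
Ctsc: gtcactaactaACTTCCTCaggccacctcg
Ctsd: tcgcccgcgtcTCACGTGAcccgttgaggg
Ctsa: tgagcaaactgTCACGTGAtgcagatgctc

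The motif begins 2 bases before the start in Ctss (chr3:95526773-95526802, plus strand) and 151 bases before it in Ctsc (chr7:88277923-88277952, plus strand). It begins 99 bases before the start in Ctsd (chr7:142387908-142387937, minus strand) and 13 bases before it in Ctsa (chr2:164833749-164833778, plus strand). The Ctsa promoter holds another copy of TCACGTGA that begins at base 5 counted from the start (window chr2:164833766-164833795, not shown). The changes of these genes were 5.12 for Ctss, 2.68 for Ctsc, 0.98 for Ctsd and 0.69 for Ctsa. Among the members with only a shorter motif, Cst3 changed by -1.06 and Ctsl by 0.48, and Ctsk (0.50) did not pass. A match of letters is a description and shows no binding, and a link between these motifs and the changes was not tested.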

How the data were processed

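The 10 arrays, 5 sham and 5 PPE, were grouped by their labels. The authors labelled 500 ng of unpooled aortic RNA with Cy5 and a universal mouse reference with Cy3, without dye swap, and read the scans in Agilent Feature Extraction (version 10.7.3.1). According to the methods, some arrays were excluded for poor hybridization or as outliers, which may narrow the spread. The deposited files hold spot signals and local backgrounds as intensity on a linear scale, a LogRatio (log10 ratio of red over green), and flags (a score of 0 or 1) for background, saturation and outliers. The authors' series matrix holds log2 ratios, which equalled log2 of processed red over green on 100% of spots (tolerance 1e-04).

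Mean signals were corrected by normexp (offset 50, which draws dim probes towards 0) and normalized by loess within arrays (R 4.3.3, limma 3.58.1). Control spots and 176 to 331 outlier spots per array were left out. Tested probes had red flagged as well above background on 5 or more arrays, and a gene is its brightest tested probe. Groups were compared with limma, two-sided and unpaired, with Benjamini-Hochberg adjustment over 22520 names (22519 relative to Cst3) and a threshold of 0.01, after the false discovery rate of the study, whose SAM test was not run. The script recovered known changes on simulated data. Where a probe was above background on no sham array, the fold is a bound, against the higher of its own and the lowest detected red signal on each array, after loess and Aquantile; such folds are open to dye bias. P-values measure the spread between mice, 1 array each, and the number of arrays limits the precision.

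The members and lists were chosen with earlier results of these data known. All 10 members are named, as are the 3 largest called changes of each list and the 3 names most like Ctsk, Ctsl, Ctss and Cst3. Ctsf, Ctsg, Eln and Sort1 fall outside that rule and were chosen after their values were seen. So were the macrophage and osteoclast markers that did not pass or were not tested. The same holds for the genes named for the number of sham arrays above background. Tfeb, Tfe3, Tfec and 1 neutrophil marker were not analysed here. The alternatives were other scalings, background corrections, value sources, filters, probe rules, slide or scan day as a block, a replicate block and leaving out each array.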

Additional observations from a re-analysis of the deposited data

How the results depend on the processing

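All 9 cathepsins passed relative to Cst3 in each of 12 other ways of processing and without each array in turn. The share of all names that passed with them was 25.4% with arrays centred on their median and 66.3% to 87.8% in the other 11 ways, and 75.8% to 82.4% without each array. With arrays centred on their median in place of loess, 1 member (Ctss) rose and 0 fell, and over all names 408 rose and 8 fell (98.1% of calls higher), against 3122 and 2244 with loess (58.2%). The changes of the cathepsins were larger under that centring, and the cause of the lost calls was not tested. With the red channel alone, the difference between the medians of the elastin-degrading and the other cathepsins was -0.049, Ctsk and Ctsh passed, and Ctsl and Ctsa did not. No change reversed in sign. Without each array in turn, 6 to 7 members rose, 1 to 1 fell, and the difference of medians was between -0.70 and -0.42. Replicate numbers did not pair the arrays (correlations of -0.30 to 0.52 between same-numbered arrays). With the replicate block, 7 members rose and 1 fell, as without it, and over all names 3024 rose and 2281 fell. In each group, 10 members were examined for a single array far from the others, and none was found in 20 groups.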
